A study of Mus musculus with 2 samples.

Results

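Chemokine genes and the macrophage growth factor gene Csf1 were followed in MS1, a mouse line of immortalised endothelial cells that came from pancreatic islets. The rule named 10 genes by symbol, and 8 of them were among the 11405 genes listed in both deposited tables: Cxcl1, Cxcl2, Cxcl10, Cxcl12, Cxcl16, Cx3cl1, Ccl2 and Csf1. Cxcl5 and Ccl7 were not analysed here. One group received a lentivirus with a short hairpin RNA against Pspc1 (genotype label Pspc1 knockdown), and the other a lentivirus with a hairpin against LacZ, a bacterial gene that serves as control (genotype label wt). Poly-A RNA was sequenced from 1 library per group, so no value has a replicate error and no test between the conditions was possible. Whether each line was a pool or a clone, and which hairpin was used, was not given in the sources used here. PSPC1 is an RNA-binding protein of paraspeckles, nuclear bodies built on the RNA Neat1.

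Chemokines are small secreted proteins that attract leukocytes through G protein-coupled receptors, and they are classed as CXC, CC or CX3C by the spacing of their first cysteines. Endothelial cells make them and hold them on surface heparan sulfate, where passing leukocytes meet them. Inflammatory signals induce several of these genes through NF-kB, whose dimers bind kB motifs in their promoters, and AU-rich elements in the 3' untranslated region shorten the life of many of the mRNAs. CXCL12 is made by many resting endothelial and stromal cells and is not a classic NF-kB chemokine.

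The promoters of 6 members were in the RefSeq promoter table (build GRCm38.p6, the same as mm10), which gives 250 bases before and 50 bases after each start site. A pair of kB motif forms was searched on both strands, GGNNTTTCC and GGNNATTCC, and matches that overlap were counted as 1 stretch. Of 32851 promoters in the table, 8.20% held at least 1 such stretch and 0.399% held 2 or more. Cxcl1 and Cxcl2 held 2 each, Csf1 and Cxcl10 held 1 each, and Cxcl12 and Cx3cl1 held none. For Cx3cl1 the table's start site lies inside the gene as annotated in GENCODE M21, which begins at 94772009 on chromosome 8. The last 170 bases before that site, 94772010 to 94772179, are within the gene, so less of its upstream region was searched. The last 170 bases before the start site are shown for 5 members, 5′ to 3′ on the gene's strand, because they show these pairs of stretches side by side with a promoter that has none. Capitals mark the kB matches.
Cxcl1, chr5:90891075-90891244, plus strand: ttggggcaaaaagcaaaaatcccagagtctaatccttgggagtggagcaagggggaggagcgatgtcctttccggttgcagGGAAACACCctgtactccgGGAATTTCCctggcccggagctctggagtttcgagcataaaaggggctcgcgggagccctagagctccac
Cxcl2, chr5:90903729-90903898, plus strand: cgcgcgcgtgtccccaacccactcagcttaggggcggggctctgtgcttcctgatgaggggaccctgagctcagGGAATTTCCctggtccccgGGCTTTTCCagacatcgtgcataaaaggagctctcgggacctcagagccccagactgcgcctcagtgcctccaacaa
Csf1, chr3:107760470-107760639, minus strand: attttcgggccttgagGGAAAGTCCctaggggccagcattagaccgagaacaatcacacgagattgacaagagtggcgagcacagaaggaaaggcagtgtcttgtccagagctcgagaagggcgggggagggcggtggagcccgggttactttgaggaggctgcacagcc
Cxcl10, chr5:92348890-92349059, minus strand: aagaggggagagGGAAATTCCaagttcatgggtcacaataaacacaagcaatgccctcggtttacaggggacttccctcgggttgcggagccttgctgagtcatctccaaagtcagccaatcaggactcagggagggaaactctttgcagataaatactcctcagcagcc
Cxcl12, chr6:117168365-117168534, plus strand: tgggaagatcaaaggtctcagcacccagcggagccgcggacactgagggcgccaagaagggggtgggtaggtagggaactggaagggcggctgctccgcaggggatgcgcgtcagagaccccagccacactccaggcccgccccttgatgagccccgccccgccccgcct

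In both Cxcl1 and Cxcl2 a stretch with the letters GGAATTTCC matched GGNNTTTCC on the gene's strand and, over the same bases, GGNNATTCC on the opposite strand. It began at position -70 from the start site in Cxcl1 and at -96 in Cxcl2. The other stretch of Cxcl1 was on the opposite strand at -89, and that of Cxcl2 was on the gene's strand at -77. The single stretch of Csf1 was at -154 and that of Cxcl10 at -158. A form of the interferon-stimulated response element, TTTCNNTTT, was found on the opposite strand in Cxcl10 at -212 and in no other member promoter of the table, against 10.55% of all promoters. These matches describe letters in a window and do not show that a factor bound there.

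Cxcl1 and Cxcl2 also shared a feature in their 3' untranslated regions. The AU-rich core TATTTAT, read on the RNA strand with overlapping matches counted, occurred 6 times in the 592 bases of Cxcl1 and 7 times in the 734 bases of Cxcl2. None of 1177 other listed genes with a region within 20% of the length of Cxcl1 held 6 or more, and none of 1254 around Cxcl2 held 7 or more. Of regions of like length, 17.3% around Cxcl1 and 20.3% around Cxcl2 held at least 1 match. The 30-base stretch with the most matches held 4 in each gene and is shown, because it is the site type by which such mRNAs are known to be bound. Capitals mark the matches.
Cxcl1, bases 80 to 109 of the region: agggtccTATTTATTTATgTATTTATTTAT
Cxcl2, bases 120 to 149 of the region: actTATTTATTTATctatgTATTTATTTAT

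Csf1, Cxcl12 and Cx3cl1 held the core 1 time each, in regions of 2111, 5188 and 1871 bases. Ccl2, Cxcl10 and Cxcl16 held none, in 275, 729 and 1421 bases. For these regions the transcript with the longest coding part in GENCODE release M21 was read, and whether MS1 cells use those ends was not tested.

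Pspc1 itself was lower where its hairpin was used. It had a deposited value of 3.78 in the Pspc1 hairpin library and 28.8 in the LacZ hairpin library, or 7.62-fold less. Deposited values are gene counts that the authors scaled with 1 factor per library. The reads on listed genes were 53518762 with the Pspc1 hairpin and 64009912 with the LacZ hairpin. Log2 ratios below are Pspc1 hairpin over LacZ hairpin with 0.5 added to each value, which understates the change of low genes. A gene is called higher or lower where the change was at least 2-fold and the mean of both values at least 50. By this rule 20 of 3629 genes (0.551%) were higher and 34 (0.937%) lower. The split depended on the scaling, with 23 higher and 25 lower under a trimmed mean of M values, 23 and 24 under a median of ratios, and 17 and 50 when scaled by total reads, which moved every gene by -0.10 on the log2 scale. The folds of members are given without the pseudocount, with a 95% exact counting interval that covers counting error in these libraries only. In bulk RNA, fewer cells that express a gene and less of its RNA per cell cannot be told apart.

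Endothelial markers were present in both libraries. Of 17 such genes 15 were listed, with summed values of 8800 in the Pspc1 hairpin library and 8218 in the LacZ hairpin library, and none was called. Single markers differed in direction, each by less than 2-fold, and those named here were chosen after their values were seen. Kdr, the VEGF receptor 2 gene, had 77.3 in the Pspc1 hairpin library and 148.9 in the LacZ hairpin library (log2 ratio -0.94), and the junction gene Cdh5 had 511 and 859 (-0.75). Sox18, a transcription factor gene, had 47.3 and 82.5 (-0.80), while Plvap, a gene of the endothelial diaphragm, had 824 and 495 (0.74) and Esam 566 and 376 (0.59). The part of these differences in the members' values was not tested. Of 16 leukocyte markers 14 were not listed, Ptprc, Adgre1, Csf1r and Lyz2 among them, so 2 had values. These were Cd68, a lysosomal membrane protein gene (124 and 103), and Cd14 (1.34 and 1.07). Fibroblast markers summed to 9.002 and 9.256 (2 of 10 listed), and pericyte and smooth muscle markers to 2.38 and 0.720 (1 of 10 listed, Pdgfrb). Among 12 epithelial and islet markers the 2 listed were Krt18 (36.9 and 23.9) and Krt19 (115 and 23.8), and Krt19 was called higher. Krt19 moved in the same direction as Cxcl1, Cxcl2 and Csf1, and its part in their values was not tested.

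The neutrophil chemokines Cxcl1 and Cxcl2 had the highest log2 ratios of all 11405 listed genes with a pseudocount of 0.5, an order that held under each scaling tried. With a pseudocount of 5 Cxcl2 was rank 4, after Krt19 and Bgn, and with one of 0.05 Cxcl1 was rank 4 and Cxcl2 rank 2. Both encode ligands of CXCR2, the receptor that draws neutrophils to inflamed vessels, and they lie next to each other on chromosome 5. Both were low in the LacZ hairpin library, and neither entered the counts above because the mean of their values was under 50.

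Cxcl1 (ENSMUSG00000029380, mm10 chromosome 5, 90891241 to 90893115, plus strand) had a value of 91.2 in the Pspc1 hairpin library and 4.46 in the LacZ hairpin library, from 4630 and 291 reads. This was 20.5-fold more with the Pspc1 hairpin (95% counting interval 18.2 to 23.1), and the log2 ratio of 4.21 was rank 1 of 11405. With a mean of 47.8 the gene lay just under the minimum. At a minimum mean of 20, where 0.849% of 5892 genes were higher and 1.21% lower, it was called higher with rank 1. It passed that minimum only through its value in the Pspc1 hairpin library, so this call and rank are not independent of the minimum.

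Cxcl2 (ENSMUSG00000058427, mm10 chromosome 5, 90903871 to 90905938, plus strand) had 18.1 in the Pspc1 hairpin library and 0.705 in the LacZ hairpin library, from 918 and 46 reads. This was 25.7-fold more (interval 19.1 to 35.3), and the log2 ratio of 3.95 was rank 2 of 11405. With a pseudocount of 5 the log2 ratio was 2.02, and that of Cxcl1 was 3.35. The coding sequences of both genes were 78.7% identical over aligned bases. Despite this, no stretch of 50 bases of a Cxcl1 transcript occurred without mismatch in an annotated transcript of another gene. Only exact matches between annotated transcripts were searched, so an exchange of reads aligned with mismatches was not tested. For Cxcl2, at most 169 of 2159 stretches of 50 bases (7.83%) also occurred in Cxcl3, which is not listed. This is an upper bound, because a stretch was counted for each Cxcl3 transcript that held it. The value of Cxcl2 carries that uncertainty. The read length was not given in the sources used here.

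**Figure D1:**
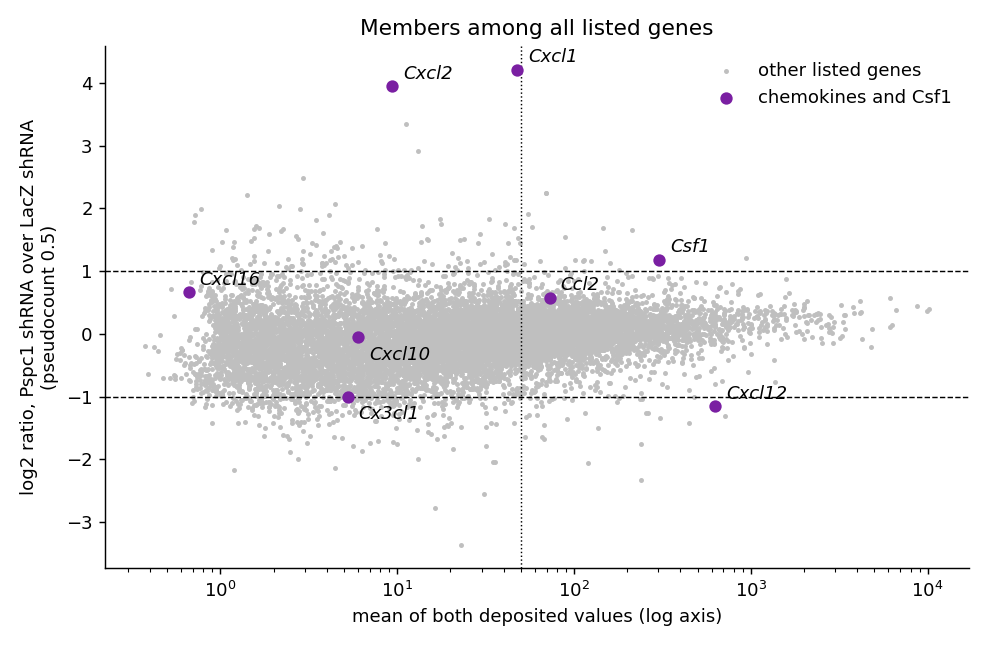
Log2 ratio of Pspc1 shRNA over LacZ shRNA (pseudocount 0.5) against the mean of both deposited values on a log axis, 1 point per listed gene, with chemokines and Csf1 in purple. Dashed lines mark 2-fold and the dotted line the minimum mean of 50. Cxcl1 (4.21) and Cxcl2 (3.95) stand at the top, Csf1 (1.18) is above the upper line and Cxcl12 (-1.15) below the lower one.

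The surroundings of this pair on chromosome 5 differed from gene to gene. Of 9 protein-coding genes within 150 kb of Cxcl1, itself included, 4 were listed: Pf4, Cxcl1, Cxcl2 and Mthfd2l. Pf4, the platelet chemokine CXCL4, lies 117.9 kb before Cxcl1 and had 12.1 in the Pspc1 hairpin library and 9.73 in the LacZ hairpin library (log2 ratio 0.30). Mthfd2l, a mitochondrial folate enzyme gene 25.2 kb past Cxcl2 on the same strand, had 61.3 with the Pspc1 hairpin and 26.1 with the LacZ hairpin (log2 ratio 1.22, mean 43.7). Mthfd2l was chosen after its values were seen. Cxcl10 lies farther along the same chromosome and its ratio is given below.

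The monocyte chemokine Ccl2 was abundant in both libraries and differed less. Its protein attracts monocytes through CCR2. Ccl2 (ENSMUSG00000035385, mm10 chromosome 11, 82035571 to 82037453, plus strand) had 87.2 in the Pspc1 hairpin library and 58.2 in the LacZ hairpin library, from 4427 and 3801 reads. This was 1.497-fold more (interval 1.43 to 1.56), under the 2-fold rule, with a log2 ratio of 0.58 that was rank 129 from the top of the 3629 genes of mean 50 or more. Scaled by total reads the log2 ratio was 0.47.

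Csf1 was called higher. Its protein drives the survival and growth of macrophages through CSF1R, and it is made as a membrane-bound and a secreted form. Csf1 (ENSMUSG00000014599, mm10 chromosome 3, 107741048 to 107760469, minus strand) had 423 in the Pspc1 hairpin library and 186 in the LacZ hairpin library, from 21464 and 12123 reads. This was 2.28-fold more (interval 2.23 to 2.33), with a log2 ratio of 1.18 that was rank 10 from the top of 3629 genes. Its receptor gene Csf1r was not listed.

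Cxcl12 was the 1 member called lower. Its protein retains and guides progenitors, lymphocytes and endothelial cells through CXCR4, and ACKR3 clears it. Cxcl12 (ENSMUSG00000061353, mm10 chromosome 6, 117168535 to 117181367, plus strand) had 390.2 in the Pspc1 hairpin library and 865 in the LacZ hairpin library, from 19807 and 56456 reads. This was 2.22-fold less (interval 2.18 to 2.25), with a log2 ratio of -1.15 that was rank 20 from the bottom of 3629 genes. Cxcl12 remained called under each scaling, pseudocount and minimum tried and after a correction for exonic length and GC content (-1.04).

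The chemokines anchored in the membrane, Cx3cl1 and Cxcl16, had means of 5.24 and 0.662, too low for a call. CX3CL1 (fractalkine) captures CX3CR1-bearing monocytes, and CXCL16 is a ligand of CXCR6. Cx3cl1 (ENSMUSG00000031778, mm10 chromosome 8, 94772009 to 94782427, plus strand) had 3.31 in the Pspc1 hairpin library and 7.17 in the LacZ hairpin library, from 168 and 468 reads. This was 2.17-fold less (interval 1.81 to 2.60), with a log2 ratio of -1.01, and with a pseudocount of 5 it was -0.55. Cxcl16 (ENSMUSG00000018920, mm10 chromosome 11, 70453983 to 70459984, minus strand) had 0.926 and 0.398 from 47 and 26 reads, 2.32-fold more with the Pspc1 hairpin (interval 1.41 to 3.91). Its log2 ratio was 0.67, and 0.13 with a pseudocount of 5. Exons of Zmynd15 overlap those of Cxcl16 by 552 bp on the opposite strand, and no strand-marking kit is stated, so reads of both genes cannot be told apart there.

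Cxcl10, whose protein attracts T cells through CXCR3 and which interferons induce, did not differ beyond counting error. Cxcl10 (ENSMUSG00000034855, mm10 chromosome 5, 92346638 to 92348889, minus strand) had 5.91 in the Pspc1 hairpin library and 6.13 in the LacZ hairpin library, from 300 and 400 reads. The log2 ratio was -0.05, and the interval of the ratio on the log2 scale, -0.27 to 0.17, bounds the difference that counting error allows. Cxcl10 overlaps Art3 by 133 bp of exon on the opposite strand, and Art3 is not listed.

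Of the 3 members with a mean of 50 or more, 1 was higher (Csf1) and 1 lower (Cxcl12), beside 0.551% and 0.937% of all genes that could be called. With no minimum, where 1.31% of all listed genes were higher and 2.68% lower, the 8 members held 3 higher (Cxcl1, Cxcl2 and Csf1) and 2 lower (Cxcl12 and Cx3cl1). The median log2 ratio of the 8 members was 0.62, against -0.05 for all listed genes. The members were chosen with earlier results of these data known, so these counts and this median are not independent of them. The direction of each member was the same under every scaling, pseudocount and correction tried. For Cxcl10 these log2 ratios ran from -0.14 to -0.0024, within its counting error, so its direction is not resolved.

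**Figure D2:**
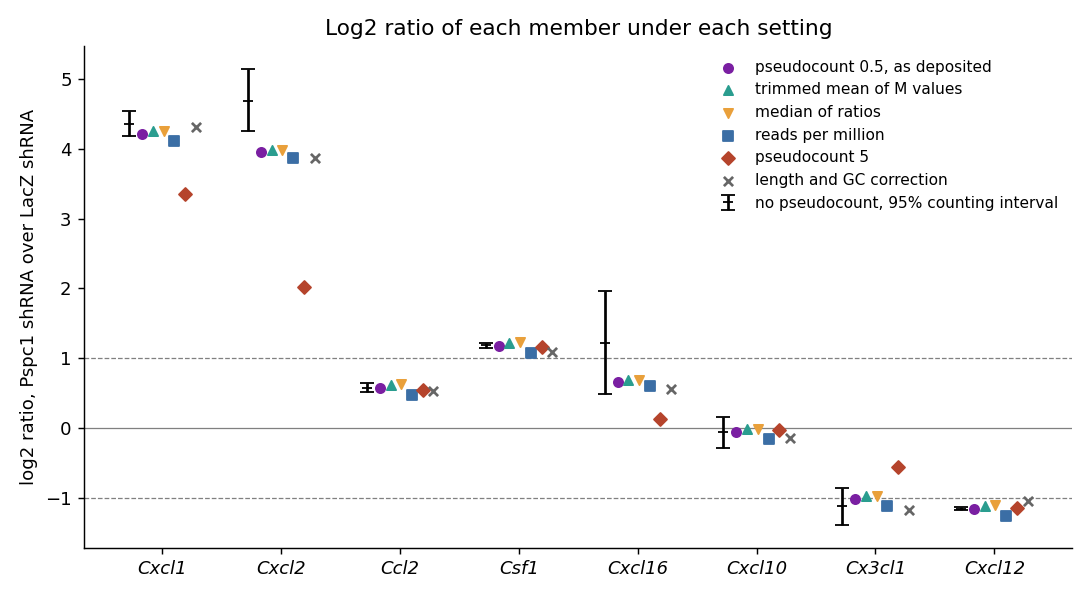
Log2 ratio of Pspc1 shRNA over LacZ shRNA for each member, without pseudocount with its 95% counting interval (black) and with the pseudocount under 6 settings of scaling, pseudocount and length and GC correction (coloured). Dashed lines mark 2-fold. No setting turned the sign of a member, though that of Cxcl10 is within counting error. A pseudocount of 5 brought Cxcl2 to 2.02 and Cxcl16 to 0.13.

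The order of the members changed between the libraries. To compare genes with each other, reads were divided by exonic length and by the total of listed reads (RPKM over the listed genes). In the Pspc1 hairpin library Csf1 (75.9) and Ccl2 (72.7) led, followed by Cxcl1 (46.1), Cxcl12 (45.3), Cxcl2 (8.29), Cxcl10 (2.49), Cx3cl1 (0.799) and Cxcl16 (0.291). In the LacZ hairpin library Cxcl12 (107.9) led, followed by Ccl2 (52.2), Csf1 (35.9), Cxcl10 (2.77), Cxcl1 (2.42), Cx3cl1 (1.86), Cxcl2 (0.348) and Cxcl16 (0.134). Counting intervals of neighbours overlapped for Cxcl1 (44.8 to 47.5) and Cxcl12 (44.6 to 45.9) with the Pspc1 hairpin. With the LacZ hairpin they overlapped for Cxcl10 (2.51 to 3.06) and Cxcl1 (2.15 to 2.72). Per length, Cxcl12 was 0.981 times Cxcl1 with the Pspc1 hairpin and 44.5 times Cxcl1 with the LacZ hairpin. Csf1 was 1.68 times Cxcl12 with the Pspc1 hairpin and 0.332 times with the LacZ hairpin. Exonic length merges all annotated exons, from 1138 bp for Ccl2 to 8176 bp for Cxcl12, so a gene whose cells use shorter forms is understated.

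**Figure D3:**
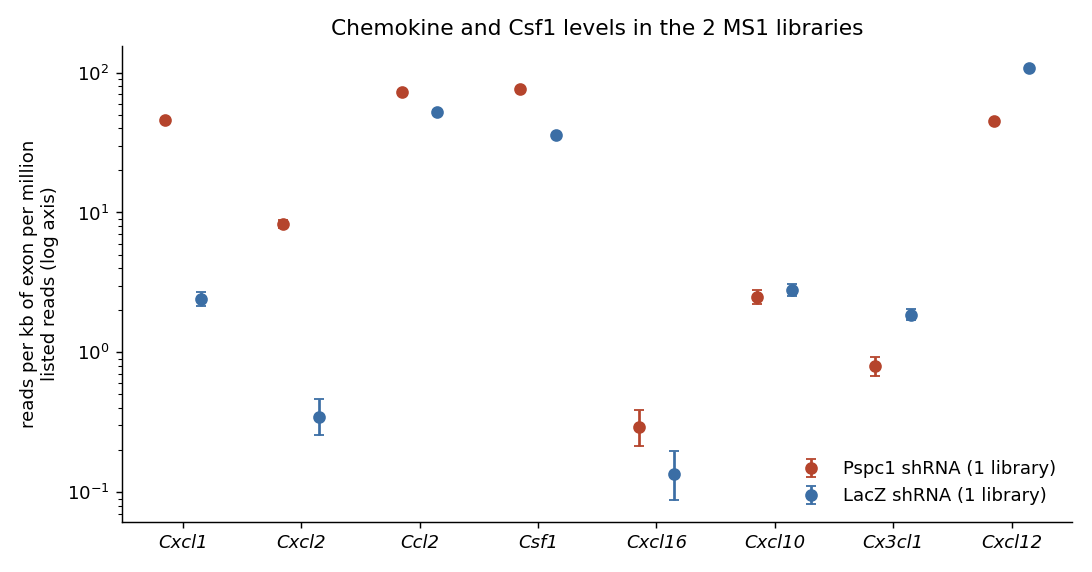
Level of each member in reads per kb of exon, relative to the total of listed reads (RPKM), on a log axis, in the Pspc1 shRNA library (red, left of each pair) and the LacZ shRNA library (blue, right), with 95% counting intervals and 1 library each. Cxcl1 and Cxcl2 are far apart between libraries, Ccl2 and Cxcl10 close, and Cxcl12 and Cx3cl1 lower with the Pspc1 hairpin.

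The deposited values of the 7 listed chemokines summed to less in the knockdown library, but their levels per kb of exon did not. The sum of deposited values without Cxcl12 was higher in that library. Their deposited values summed to 597 in the Pspc1 hairpin library and 942 in the LacZ hairpin library (log2 ratio of the sums -0.66, counting interval -0.68 to -0.64). Without Cxcl12 the sums were 207 and 77.1, or 2.68-fold more with the Pspc1 hairpin (log2 ratio 1.42, interval 1.37 to 1.47). Cxcl12 took 65.4% of the chemokine reads with the Pspc1 hairpin (exact binomial 95% interval 64.8 to 65.9) and 91.8% with the LacZ hairpin (91.6 to 92.0). Cxcl1 took 15.3% (14.9 to 15.7) and 0.473% (0.421 to 0.531). Ccl2 took 14.6% (14.22 to 15.01) and 6.18% (5.99 to 6.37). Per kb of exon and relative to the total of listed reads (RPKM), the 7 chemokines summed to 176.0 with the Pspc1 hairpin and 167.6 with the LacZ hairpin. The direction of the total thus depended on whether exonic length was taken into account. Of the sum per kb, Ccl2 held the greatest share with the Pspc1 hairpin, 41.3% against 31.1% with the LacZ hairpin, while Cxcl12 held 25.7% and 64.4%.

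**Figure D4:**
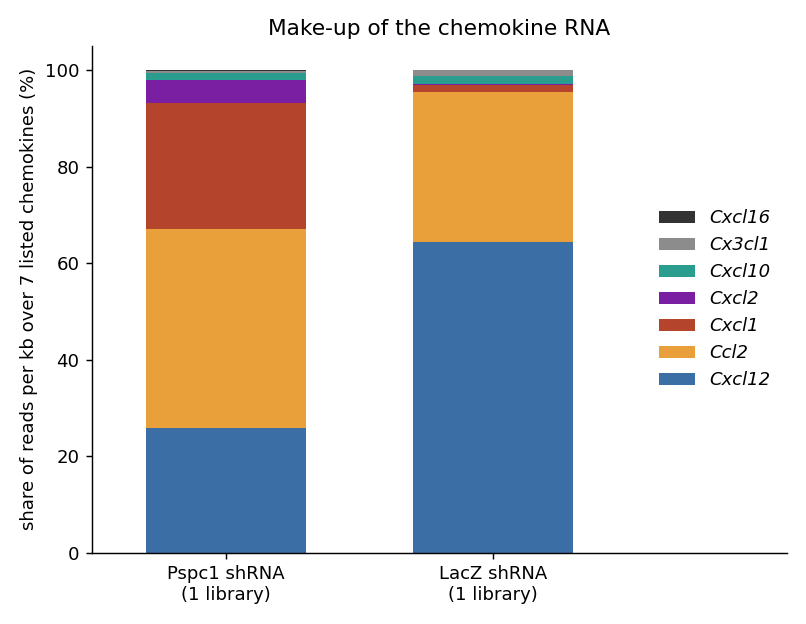
Share of each of 7 listed chemokines in their summed reads per kb of exon, in percent, in the Pspc1 shRNA library (left bar) and the LacZ shRNA library (right bar). Cxcl12 takes 25.7% of the left bar and 64.4% of the right, and Cxcl1 takes 26.2% and 1.45%.

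Other chemokines and the receptors were mostly absent from the files. Of 28 other chemokine genes 5 were listed, all with a mean under 20, and their values summed to 21.5 in the Pspc1 hairpin library and 20.5 in the LacZ hairpin library. Of 24 receptor genes 2 were listed. Ackr3, the receptor that clears CXCL12, had 31.6 and 35.1 (log2 ratio -0.15), and Ccr10 had 1.97 and 2.15. Cxcr2, Cxcr3, Cxcr4, Cxcr6, Cx3cr1 and Ccr2 were not analysed here. Of 20 other cytokines and growth factors for leukocytes 7 were listed and none was called. The 2 with a mean of 50 or more were Mif (750.0 and 690.3) and Tgfb1 (73.9 and 61.6). The others had a mean under 20 and mixed directions, and are named here after their values were seen. Lif had 5.26 in the Pspc1 hairpin library and 1.65 in the LacZ hairpin library, Csf3 1.06 and 0.460, and Flt3l 2.40 and 1.27. Kitl had 1.18 and 3.88, and Il15 1.87 and 2.30.

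Genes of NF-kB signalling had a median log2 ratio above 0 under every scaling, with 1 call. The list of 16 subunits, kinases and inhibitors was listed in full, and 7 had a mean of 50 or more. Nfkbia, an inhibitor that NF-kB itself induces, was called higher, with 151 in the Pspc1 hairpin library and 75.1 in the LacZ hairpin library (log2 ratio 1.004). It fell short of 2-fold when scaled by total reads (0.90), with a pseudocount of 5 (0.96) and after the length and GC correction (0.85). Tnip1, another brake on the pathway, had 89.4 and 45.1, the subunit gene Rela 232 and 167, and Nfkb2 223 and 162, and none of these was called. The subunit gene Relb had 56.0 and 27.7 (log2 ratio 1.002), with a mean of 41.9 under the minimum. Directions were mixed under a mean of 20. Tnfaip3, Nfkbiz, Bcl3 and Nfkbie had log2 ratios above 0, Chuk and Map3k14 under 0, and that of Rel was -0.0002. Relb and these genes were named after their values were seen. The median log2 ratio of 9 list genes of mean 20 or more was 0.46, against 0.04 for all 5892 such genes, and 8 of the 9 were above 0.

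Among 17 other endothelial NF-kB target genes 15 were listed, 1 was called higher and none lower. The called gene was Selp, the leukocyte adhesion receptor P-selectin, with 159 in the Pspc1 hairpin library and 69.8 in the LacZ hairpin library (log2 ratio 1.18). The early response gene Ier3 had 280.0 and 146.9, and the adhesion receptor gene Vcam1 had 109 and 64.2. Plau, the protease urokinase, had 1162 and 1550. The median over 11 genes of mean 20 or more was 0.35, with 8 above 0. This list and the list above were written with earlier results of these data known and are not independent of them.

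Of 14 genes of the interferon-gamma receptor, STAT and IRF families all were listed, and Ifngr2 was called higher. Ifngr2, a chain of the interferon-gamma receptor, had 222 in the Pspc1 hairpin library and 68.7 in the LacZ hairpin library (log2 ratio 1.68). Stat3 had 114 and 78.2, Irf8 87.2 and 112, and Socs3 54.9 and 50.9. The median over 8 genes of mean 20 or more was 0.13, with 5 above 0.

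Regulators of AU-rich mRNA decay showed no call, and those with a mean of 20 or more had a median below 0 under every scaling. All 15 were listed, and over 7 with a mean of 20 or more the median log2 ratio was -0.19, with 6 under 0. Elavl1, which encodes the stabilising protein HuR, had 98.3 in the Pspc1 hairpin library and 113 in the LacZ hairpin library. The decay factor gene Zfp36l2 had 124 and 141, Hnrnpd, which encodes AUF1, 140.0 and 154, and the deadenylase gene Cnot8 73.8 and 78.7. Under a mean of 20 the directions were mixed, and those genes are named here after their values were seen. Zfp36 had 9.75 in the Pspc1 hairpin library and 4.74 in the LacZ hairpin library, and Zc3h12a had 5.75 and 2.64. Zfp36l1, Tia1, Cnot7, Rc3h1, Rc3h2 and Dhx36 had log2 ratios under 0.

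Genes that release or hold chemokines showed no call. Of 17 protease genes 13 were listed, with a median log2 ratio of 0.29 over 9 genes of mean 20 or more. Those named by size were Ctsb (673 and 542), Adam15 (296 and 239), Mmp14 (127 and 103) and Rhbdf2, a partner of the sheddase ADAM17 (62.7 and 51.1). Adam10 and Adam17, which encode the main sheddases of CX3CL1 and CXCL16, had 9.40 and 19.0, and 16.9 and 29.5, and were named after their values were seen. Of 20 heparan sulfate genes 18 were listed, with a median of 0.10 over 12 of mean 20 or more, 7 of them above 0. Scaled by total reads the median was -0.0029, with 6 above and 6 below. Hspg2, the perlecan gene, had 28.4 in the Pspc1 hairpin library and 60.8 in the LacZ hairpin library (log2 ratio -1.08), with a mean of 44.6 under the minimum, and was named after its values were seen. The glycosyltransferase gene B3gat3 had 154 and 87.9, Sulf2, a sulfatase that trims heparan sulfate, 254 and 170.0, Xylt2 42.2 and 61.5, and Extl3 130.4 and 103.

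**Figure D5:**
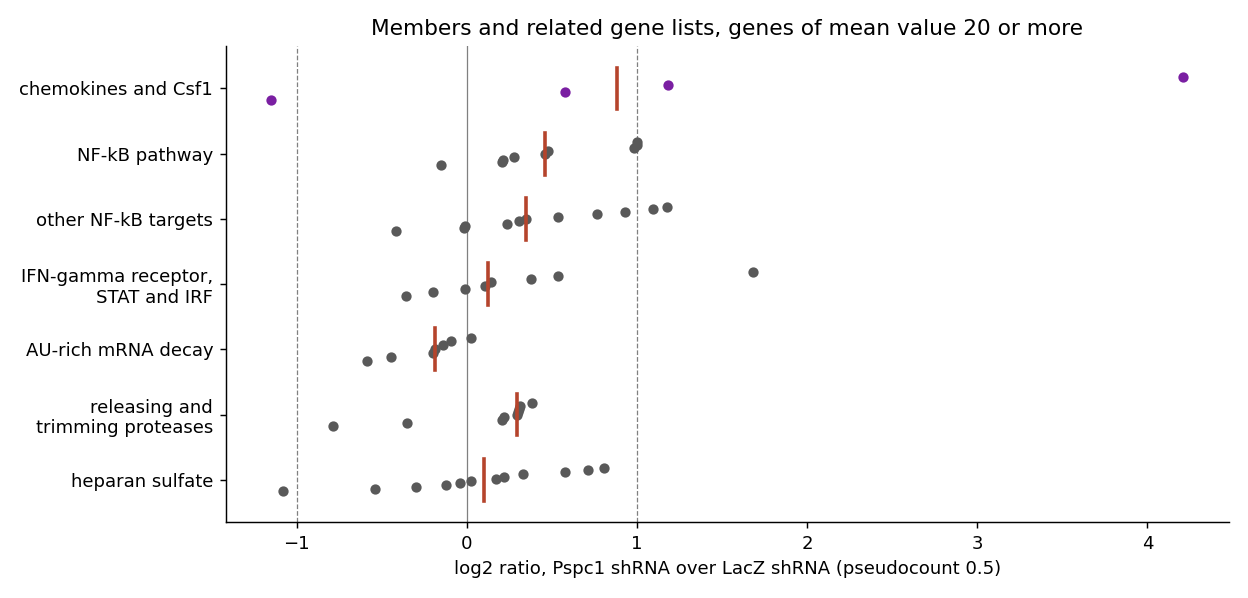
Log2 ratio of Pspc1 shRNA over LacZ shRNA (pseudocount 0.5) for genes with a mean value of 20 or more, 1 point per gene and 1 row per list, with the median as a red bar and dashed lines at 2-fold. The members spread from -1.15 to 4.21, the NF-kB pathway list has a median of 0.46 and the AU-rich decay list of -0.19.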

How the data were processed

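Each deposited table holds a signal per gene, which the authors made from sequencing reads. The submitters' processing notes name Trimmomatic 0.39, HISAT2 2.1.0, featureCounts 2.0.0, DESeq 1.39.0 and build mm10, with no role or order. Neither the annotation they counted on nor their scaling and any filter on low genes is stated. Every value was a whole multiple of 1 step per library (100% within 0.01 reads), 0.0197 with the Pspc1 hairpin and 0.0153 with the LacZ hairpin, so reads were had by division. No gene was listed at 0. With 1 library per group no count test was possible.

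Ratios used a pseudocount of 0.5. Counting intervals are exact conditional binomial (Clopper-Pearson, 95%), and those of levels are exact Poisson. Reads carry no molecular identifiers. Symbols were found for 11399 of 11405 identifiers. Positions and lengths came from GENCODE M21. Named genes are the members, Pspc1, up to 4 genes per list by absolute log2 ratio at a mean of 50 or more, the listed receptors and called markers. Members and lists were chosen with earlier results of these data known. The alternatives were 3 scalings, 2 pseudocounts, 3 minimums and a length and GC correction in 10 by 10 bins. Motif letters were set after promoters had been read. Forms 1 base longer were searched first and then shortened, with those results known. The kB values of the longer forms are given with the closing observations. The steps were tested on simulated data. Python 3.11.15, numpy 2.4.6, pandas 2.3.3, scipy 1.17.1, Biopython 1.88 and matplotlib 3.10.9 were used.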

Additional observations from a re-analysis of the deposited data

How the results depend on the processing

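The calls of Csf1 and Cxcl12 held under every scaling, pseudocount, minimum and correction tried. At a minimum mean of 20 the members held 2 higher genes (Cxcl1 added), and all genes 50 higher and 71 lower. Cxcl1 passed that minimum only through its value in the Pspc1 hairpin library. At a minimum mean of 100 all genes held 12 higher and 16 lower. With no minimum the members held 3 higher and 2 lower, and all genes 149 and 306. Of 48 recomputed member ratios, 43 kept their call or, where the gene was not called, moved by no more than the distance from the ratio without pseudocount to its counting bound on that side. The 5 others, which moved by more, were those of Cxcl1, Cxcl2 and Cx3cl1 with a pseudocount of 5, Cxcl2 with 0.05 (4.59) and Ccl2 when scaled by total reads. Cx3cl1 fell just short of 2-fold under a trimmed mean of M values (-0.97) and a median of ratios (-0.96). The settings for the list genes that were called were added after seeing the data. No paired analysis was possible because each group held 1 library. Depth limited Cxcl16, Cxcl2, Cxcl10 and Cx3cl1 most.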

Other observations

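The features printed for Cxcl1 and Cxcl2 were also counted over all listed genes with a mean value of 20 or more, as a description with no test. Of 474 such genes with at least 1 kB stretch in a promoter of the RefSeq table, 13 were at least 2-fold higher in the Pspc1 hairpin library (2.74%), against 26 of 4275 genes without one (0.608%). Without Cxcl1 and Csf1 the count was 11 of 472 (2.33%). Of these 11, the interleukin 4 receptor gene Il4ra had 51.9 in the Pspc1 hairpin library and 14.2 in the LacZ hairpin library. The adhesion receptor gene Icam1 had 55.9 and 25.9. The others were Ifngr2, Pcf11, Selp, Snhg8, Sp5, Neurl3, Dab2ip, Mvp and Nfkbia. Il4ra and Icam1 were chosen after their values were seen. The median log2 ratio was 0.09 with a stretch and 0.04 without, and the shares at least 2-fold lower were 1.27% and 1.26%.

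The kB forms were first searched with 1 further G at the 5′ end. The members' counts of stretches were then the same, 2.40% of promoters held at least 1 and 0.0609% held 2 or more. With those forms 8 of 134 genes with a stretch were at least 2-fold higher (5.97%), against 31 of 4615 without (0.672%), and 6 of 132 without Cxcl1 and Csf1 (4.55%).

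Of 38 listed genes with 2 or more of the kB stretches printed above, 7 were at least 2-fold higher (18.4%) and none 2-fold lower, with no minimum mean. Over all 11405 listed genes these shares were 1.31% and 2.68%. Without Cxcl1 and Cxcl2 the count was 5 of 36 (13.9%). The median log2 ratio of the 38 genes was 0.13, and the lowest was -0.97 (Aebp2). Cxcl1 and Cxcl2 led, and the NF-kB inhibitor gene Tnfaip3, chosen after its values were seen, followed with 6.76 and 2.31. The other genes at least 2-fold higher were Snhg8, Gm7467, Icam1 and Nfkbia. Of these Gm7467 had low values, 3.03 in the Pspc1 hairpin library and 1.12 in the LacZ hairpin library. Nfkb2 and Stat3 were among the 38 with log2 ratios of 0.46 and 0.54, under 2-fold.

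The 23 listed genes with 6 or more TATTTAT matches differed in how densely these lay. Their regions ran from 592 bases for Cxcl1 and 734 for Cxcl2, the shortest, to 122583 for D10Wsu102e. Their log2 ratios ran from 4.21 for Cxcl1 down to -1.02 for Lcorl, with a median of -0.38. Of these 23 genes 3 were at least 2-fold higher (13.0%) and 1 lower (4.35%), with no minimum mean. The 3 were Cxcl1, Cxcl2 and Pla2g16, so without the first pair the count was 1 of 21 (4.76%). Ptgs2, which encodes cyclooxygenase 2, had 6 matches, with values of 20.9 in the Pspc1 hairpin library and 12.1 in the LacZ hairpin library. Of 48 genes of mean 20 or more with at least 4 matches, 2 were at least 2-fold higher (4.17%), against 0.769% of those with none. Cxcl1, whose matches prompted this count, was among the 2, and it passed the minimum only through its value in the Pspc1 hairpin library. The share higher was 0.701% with 1 match and 0.904% with 2 to 3. The shares at least 2-fold lower were 2.08% with at least 4 matches and 0.973% with none. The median log2 ratio of the 48 genes was -0.07 over a median region of 2704 bases. Those with 2 to 3 matches had a median log2 ratio of -0.09 over a median region of 2357 bases, and those with none 0.06 over 700 bases.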
